A study of Mus musculus with 14 samples.

Results

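Mouse ES cells were grown as embryoid bodies (EBs) and steered toward spinal motor neurons, and the interval from day 2 to day 4 of that culture was examined here in the libraries labelled WT. Its members are 2 samples of the 14 in the series, 1 RNA-seq library of EBs at day 2 and 1 at day 4, taken by their labels. The study set out to learn how core promoter factors take part in making neurons, and it sequenced poly-A RNA from 11 libraries of ES cells, EBs and newborn tissue. The WT cells are the JM8 ES cell line of C57BL/6 origin, kept on mouse embryonic fibroblast feeders before they were aggregated. The libraries labelled KO come from 1 clone, genotype TAF9B -/-, so that line and clone cannot be told apart from genotype. EBs of both labels were cultured in differentiation medium that held retinoic acid and the smoothened agonist SAG, with no separate day of addition given in the methods. Each day has its own table, normalized apart from the others, so levels set side by side across days carry that difference in scaling.

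No group has a second library, so there is no spread between replicates and no test of any difference. The levels are FPKM, the number of fragments per kilobase of transcript scaled to the depth of the library, and no read counts are given, so that depth cannot be known. A gene was called higher or lower at day 4 when its log2 ratio of FPKM, day 4 over day 2, passed 2-fold in that direction and either library was above 1 FPKM. Ratios were centred on the median of the 10827 loci above 1 FPKM at both days, which subtracted 0.09 on the log2 scale. *Taf9b*, the gene targeted in the KO clone, went against the labels, at 0.516 FPKM in the day 2 library labelled WT and at 4.08 FPKM in its partner labelled KO, and at 1.96 and 4.27 FPKM at day 4. It was likewise lower in the library labelled WT among ES cells (0.537 and 3.06 FPKM) and at day 6 (1.37 and 4.01 FPKM), whereas newborn spinal column went with the labels, at 6.65 FPKM labelled WT and 3.31 labelled KO. The words WT and KO are therefore used here as labels, and every direction below is that of the libraries so labelled.

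The protocol exposes the EBs to 2 signals. Retinoic acid binds nuclear receptors that sit on DNA as heterodimers of RAR and RXR, and it gives neural cells the identity of the hindbrain and spinal cord, in part by switching on Hox genes. SAG activates Smoothened, the transducer of the Sonic hedgehog pathway, and through the GLI factors it gives neural progenitors a ventral identity, from which motor neurons arise. Motor neuron progenitors carry OLIG2, and they exit the cell cycle before they express MNX1 and ISL1.

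Of 12531 loci above 1 FPKM in at least 1 library, 1775 were called higher at day 4 (14.2%) and 1873 lower (14.9%), or 29.1% in either direction. More than 4-fold differences were seen at 709 loci higher and 885 lower, and more than 16-fold at 240 and 234. Of the 10827 loci above 1 FPKM at both days, 1060 were called higher and 1108 lower. These are the background for the counts given below with both days above 1 FPKM in the libraries labelled WT. Across the loci above 1 FPKM at both days the levels of day 2 and day 4 had a Spearman correlation of 0.86, as a description of 10827 loci that share 2 libraries. The middle 50 percent of the centred ratios ran from -0.43 to 0.45. In bulk RNA a smaller share of cells of a type and less RNA in each such cell cannot be told apart, and this holds for every level given here.

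**Figure D1:**
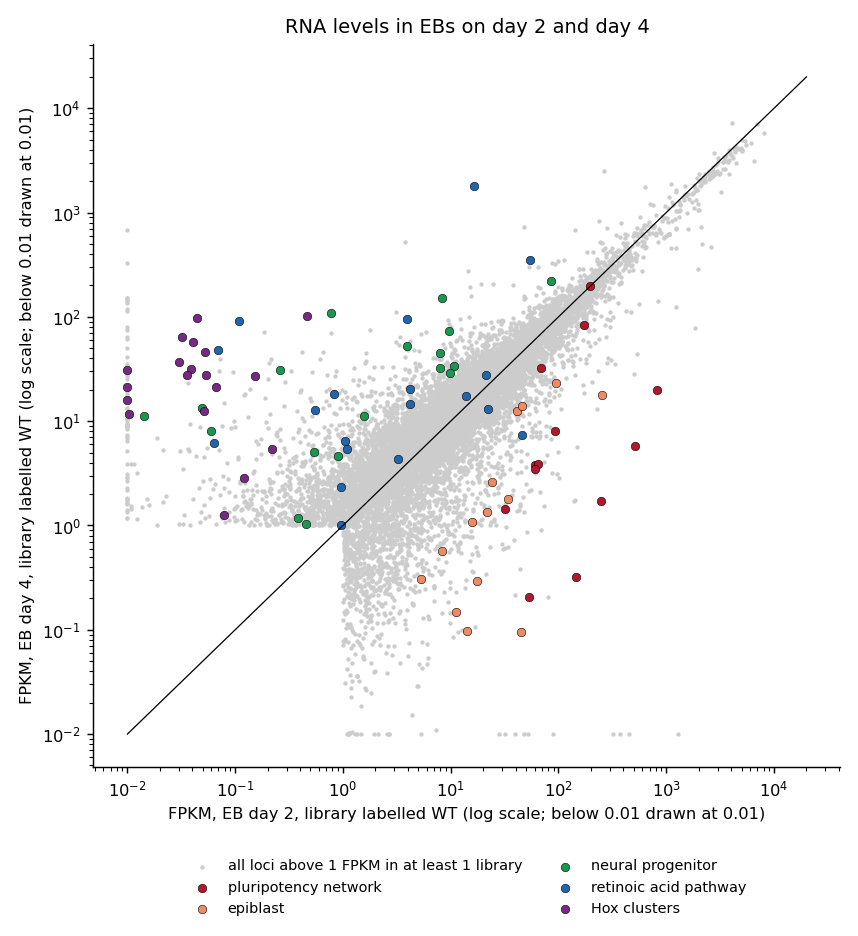
FPKM at day 2 (x axis) and day 4 (y axis) in the libraries labelled WT, both on log scales with levels near 0 drawn at the edge, 1 point per locus, with 5 gene groups in colour and the line of equal levels. The genes of the core pluripotency list and the epiblast genes lie on or under the line and the Hox genes at the upper left, below 1 FPKM at day 2.

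Among genes above 1 FPKM at both days, the largest rises included a cell cycle gene and retinoic acid genes. *Ccnd2*, the gene for cyclin D2, was at 3.76 FPKM at day 2 and 523 at day 4, a log2 ratio of 7.03. *Crabp2*, which encodes a carrier that brings retinoic acid to its nuclear receptors, went from 16.6 to 1800.1 FPKM (6.67). The others of the 10 largest were *Spsb4*, *Prtg*, *Zfp703*, *Fndc5*, *Cyp26a1*, *Ackr3*, *Nsg2* and *Apba2*, with log2 ratios from 4.22 to 5.30. *Prtg* encodes protogenin, a cell surface protein of the early neural tube, and stood at 3.11 and 112 FPKM. Genes below 1 FPKM at day 2 with the highest levels at day 4 included *Pax6* (109 FPKM), *Hoxb5*, *Stra8*, *Hes5*, *Irx3*, *Hoxb2*, *ccdc198*, *Hoxb4* and *Rarb*. Of these *ccdc198* was listed at 0 at day 2 and at 61.4 FPKM at day 4, and at 0.728 FPKM at day 6.

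The 10 largest falls among genes above 1 FPKM at both days had log2 ratios of -5.05 or below. *Tdh*, threonine dehydrogenase, on which mouse ES cells rely for their metabolism, was at 247 FPKM at day 2 and 1.71 at day 4, a log2 ratio of -7.26. *Utf1* went from 508 to 5.83 FPKM, *L1td1* from 139 to 1.70, *Dnmt3l* from 143 to 1.75 and *Esrrb* from 73.9 to 1.53. *Pou5f1*, *Tdrd12*, *Etv5*, an ETS factor induced by FGF signaling, *Nupr1*, a stress-induced chromatin protein, and *Dppa3* completed the 10, with log2 ratios from -5.46 to -5.05. Genes that ended below 1 FPKM at day 4 from the highest levels at day 2 were *Tdgf1*, *Platr10*, *Mgp*, *Fgf4*, *Sgk1*, *Otx2*, *Mmp3*, *Enpp2*, *Gtsf1l* and *Nr0b1*. *Tdgf1*, the Nodal co-receptor also called Cripto, had the highest day 2 level of these, 145 FPKM, and was at 0.320 FPKM at day 4.

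Gene lists written for this comparison held 477 genes with a locus in the tables, of which 381 passed the level filter. Of these, 132 were called higher and 111 lower. The lists were written for a tissue in transition, so a share above the background of 29.1% describes the choice of lists as well as the cells.

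**Figure D2:**
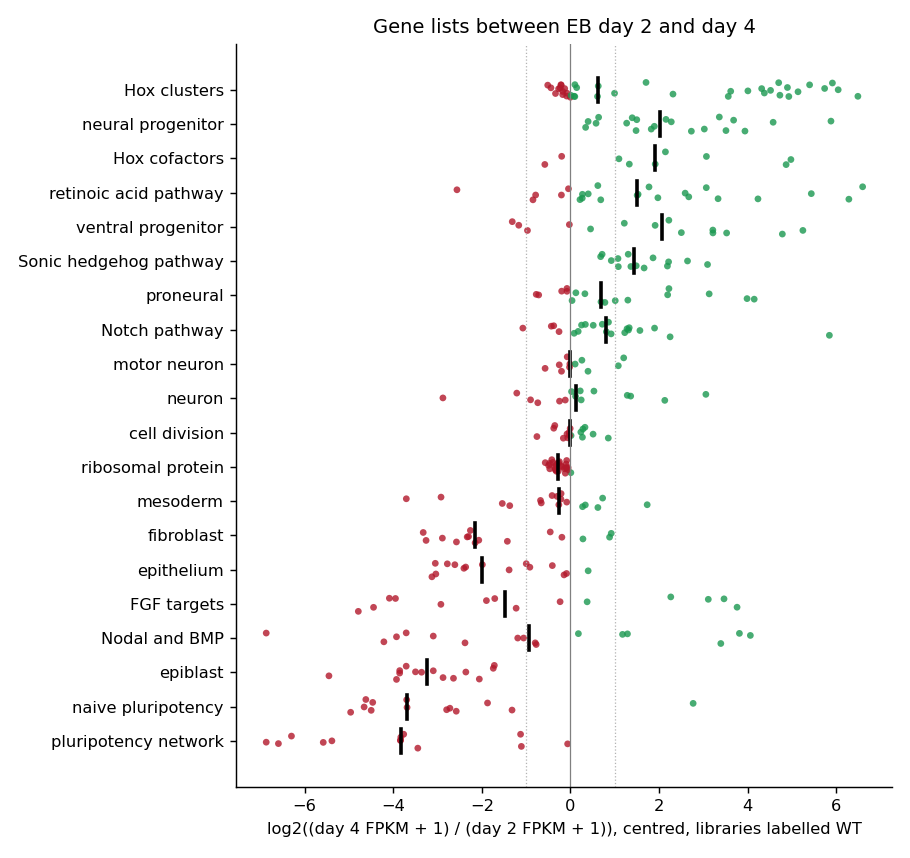
Log2 of (day 4 FPKM + 1) over (day 2 FPKM + 1), centred, in the libraries labelled WT (x axis) for every gene of 20 lists, 1 point per gene, green above 0 and red below, with the median of each list as a black bar and dotted lines at 2-fold. The 3 lists of pluripotency and epiblast genes lie at the left apart from *Gbx2* of the naive list, and neural progenitor genes lie to the right of 0 throughout.

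The network of pluripotency was lower at day 4 at nearly every gene. All 13 genes of the core list were above 1 FPKM at day 2 and 12 of them were called lower, with a median log2 ratio of -4.19 where the median of all loci was 0. Of the 13, 2 were below 1 FPKM at day 4, and with both days above 1 FPKM 10 were lower. *Pou5f1*, the gene for OCT4, was at 829 FPKM at day 2 and 19.9 at day 4. *Nanog* went from 60.4 to 3.77 FPKM and *Zfp42*, the gene for REX1, from 65.2 to 3.91. *Sox2*, which neural progenitors share with ES cells, had a smaller fall, from 172 to 83.7 FPKM (-1.13). *Lin28a*, an RNA-binding protein of early embryonic cells, was the gene not called, at 197 and 199 FPKM. The plot of levels over the time course shows the day 4 library below its neighbours for several of these genes. *Pou5f1* stood at 859 FPKM in ES cells and at 198 in the day 6 library, and *Nanog* at 168 and 62.5, so that day 6 levels lay above those of day 4. These days come from 1 library each in separate tables.

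Of the 13 genes of the naive state, found in the inner cell mass and in ES cells, 12 were called lower, with a median of -4.20, but 6 of the 13 passed the filter through day 2 alone, where they had to be high. With both days above 1 FPKM 6 were lower and 1 higher. *Klf2* went from 86.9 to 3.20 FPKM, *Dppa5a* from 1835 to 77.8, *Tcl1* from 15.8 to 0.364 and *Tfcp2l1* from 11.4 to 1.19. *Gbx2* went the other way, from 1.84 to 19.4 FPKM. It is also a gene of the anterior hindbrain. The 14 genes of the epiblast, the state that follows and precedes gastrulation, were above 1 FPKM at day 2 and all 14 were called lower (median -4.03). Here too 6 passed the filter through day 2 alone, and the 8 above 1 FPKM at both days were all lower. *Otx2* was at 2.88 FPKM before aggregation, at 44.4 in the day 2 EBs and at 0.0950 in those of day 4. *Fgf5* stood at 1.71, 11.3 and 0.149 FPKM at these times, *Pou3f1* at 4.81, 24.3 and 2.63, and *Dnmt3b* at 93.9, 255 and 17.7. For these genes day 2 was thus the highest of the WT-labelled EB and ES cell levels. *Foxd3*, a repressor needed in pluripotent cells and later in neural crest, went from 14.04 to 0.0965 FPKM.

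Genes of the Nodal, BMP and FGF pathways, which act on the epiblast, moved in both directions. Of 15 genes of the Nodal and BMP pathways above 1 FPKM, 10 were called lower and 5 higher, and their summed level was 304 FPKM at day 2 and 435 at day 4. Of the 15, 4 passed through day 2 alone, and with both days above 1 FPKM the split was 6 lower and 5 higher. *Nodal* went from 15.9 to 1.084 FPKM, its inhibitors *Lefty1* from 33.7 to 1.80 and *Lefty2* from 17.7 to 0.295, and *Gdf3*, a related ligand, from 40.8 to 1.38. The 5 called higher were *Bmp7* and the genes *Id1*, *Id2*, *Id3* and *Smad6*, which respond to BMP signaling in many cells. *Id1* was at 5.30 and 69.0 FPKM, *Id2* at 3.39 and 64.2, and *Id3* at 14.6 and 273. The ligand gene *Bmp4* was lower, from 3.03 to 1.04 FPKM, as was *Smad7*, an inhibitor of both pathways, from 10.5 to 1.33. Among 14 genes of the FGF pathway, 8 were called lower and 4 higher, or 5 and 3 with both days above 1 FPKM. The feedback inhibitors *Spry2* (73.5 to 4.09 FPKM) and *Spry4* (16.8 to 0.108), the phosphatase gene *Dusp6* (57.2 to 7.08) and the ETS factor *Etv4* (32.1 to 0.605) were lower. The receptor genes *Fgfr2* (1.89 to 25.4 FPKM) and *Fgfr3* (0.750 to 7.89), *Fgf15* (3.10 to 57.7) and *Fgfbp3* (1.92 to 33.1) were higher, while *Fgfr1* was at 22.1 and 30.7. Of 7 genes of DNA methylation, *Dnmt3a*, *Dnmt3b* and *Dnmt3l* were called lower and *Tet3* higher, from 1.11 to 7.26 FPKM, and the maintenance factor gene *Uhrf1* was at 115 and 134.

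Genes of neural progenitors were higher at day 4. Of 20 genes on the list 18 passed the level filter and all 18 of those were called higher, but 9 of them passed it through day 4 alone, where they had to be high. The other 9 were above 1 FPKM at both days. *Sox1*, the earliest specific marker of neural fate, was at 0.258 FPKM at day 2 and 30.7 at day 4. *Pax6*, a regulator of progenitor identity in the neural tube, was at 0.771 and 109 FPKM. *Sox3* went from 8.34 to 150.4 FPKM, *Nes*, the intermediate filament of neural stem cells, from 7.94 to 32.4, *Msi1* from 9.59 to 73.2, and *Prom1* from 7.98 to 44.9. The smallest ratio of the 18 was that of *Sox9*, from 0.454 to 1.02 FPKM. *Zic1* and *Hes3* stayed under 1 FPKM. *Pax6* and *Sox1* were highest at day 4 in the WT-labelled course, with 13.3 and 5.03 FPKM at day 6.

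The cadherins moved in opposite directions. *Cdh1*, the E-cadherin of epithelia and ES cells, was at 143 FPKM at day 2 and 27.8 at day 4, and *Cdh2*, the N-cadherin of neural tissue, at 3.95 and 52.7. *Epcam* went from 204 to 23.7 FPKM and *Cldn7* from 77.4 to 8.98, while *Ncam1* went from 0.543 to 5.05. On the whole list 6 of 12 genes were called higher and 5 lower, but 5 of the 12 were below 1 FPKM at day 2, and with both days above 1 FPKM 1 was higher and 4 lower. Of 13 epithelial genes above 1 FPKM, 11 were called lower and none higher, or 8 lower with both days above 1 FPKM, among them *Esrp1*, a splicing factor of epithelia (32.8 to 4.85 FPKM), and *Grhl2* (10.7 to 0.796). *Krt8* was at 32.3 and 12.5 FPKM and *Krt19* at 5.78 and 8.45.

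**Figure D3:**
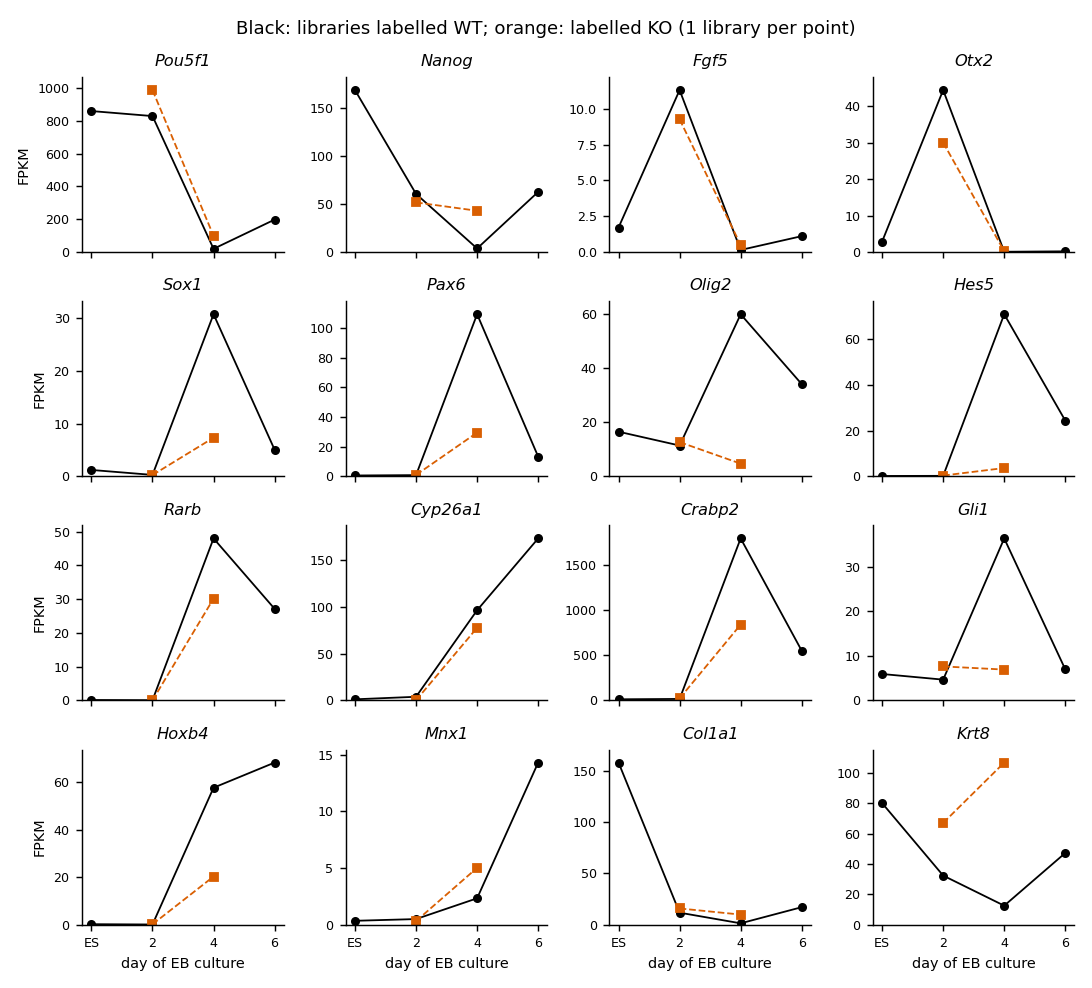
FPKM (y axis, from 0, with its own range in each panel) of 16 genes in ES cells and in EBs at days 2, 4 and 6 (x axis), 1 library per point, black for libraries labelled WT and orange for those labelled KO, which are drawn for days 2 and 4. *Sox1*, *Pax6*, *Olig2*, *Hes5*, *Rarb*, *Crabp2* and *Gli1* are highest at day 4 in the libraries labelled WT, and *Pou5f1* is lowest there.

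Of 23 genes of the retinoic acid pathway 19 passed the level filter, 13 were called higher and 1 lower, with a median log2 ratio of 2.21, and 7 of the 19 were below 1 FPKM at day 2 and entered through day 4 alone. Of the 12 above 1 FPKM at both days, 7 were higher and 1 lower. *Rarb*, the receptor gene that retinoic acid itself induces, was at 0.0696 FPKM at day 2 and 48.0 at day 4. *Cyp26a1*, whose enzyme degrades retinoic acid, was at 3.89 and 96.2 FPKM, and *Cyp26b1* at 0.0633 and 6.15. *Stra8*, a retinoic acid target known for starting meiosis, went from 0.108 to 90.4 FPKM, and *Stra6*, the retinol transporter, from 0.545 to 12.7. *Dhrs3*, which turns retinal back into retinol, went from 0.822 to 18.4 FPKM. *Crabp1*, the other cellular carrier, was high already, at 54.8 FPKM, and reached 354. The receptor genes divided: *Rxra* was called higher (4.15 to 20.4 FPKM), *Rarg* lower (45.6 to 7.32), and *Rara* (13.9 and 17.3) and *Rxrb* (21.5 and 27.6) were within 2-fold. Of the enzymes that make retinoic acid, *Aldh1a2* was at 0.965 and 1.01 FPKM and *Rdh10* at 3.21 and 4.35, and *Aldh1a1* and *Aldh1a3* were below 1 FPKM at both days.

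Receptors for retinoic acid bind a pair of hexamers in the same orientation, and the spacing of 5 bases, named DR5, is the one in the classic response element of *Rarb*. A search of both strands over 250 bases before and 50 after the transcript start nearest to each locus, found a DR5 at 4 of 12044 genes above 1 FPKM, a share of 0.0332%. All 4 were among the 1672 genes called higher with a window, none among 1785 called lower and none among 8587 within 2-fold. Of the 4, *Cyp26a1* was above 1 FPKM at both days, while *Rarb*, *Csn3* and *Syndig1* passed the level filter through day 4 alone, so that their call was in large part set by the filter. With windows set instead at the 5′ end of the locus as the tables give it, the match was found at 2 genes, both called higher. The spacing of 2 bases, DR2, was found at 3 genes called higher, 0 called lower and 6 within 2-fold, 0.0747% of all, and in windows at the locus 5′ end at 4, 1 and 4. The 4 DR5 elements are shown, read on the strand of the repeat, with the hexamers in capitals and the spacer in lower case.
Rarb: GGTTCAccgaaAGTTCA
Cyp26a1: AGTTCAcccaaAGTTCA
Csn3: GGGTCAcctgcAGGTCA
Syndig1: GGGTCAcccctAGTTCA
Counted from the transcript start, with bases before it negative, they lie at -57 to -41 in *Rarb*, -32 to -16 in *Cyp26a1*, -98 to -82 in *Csn3* and -172 to -156 in *Syndig1*. *Csn3*, a casein gene, was at 0.259 FPKM at day 2 and 8.50 at day 4, and *Syndig1*, a synapse gene, at 0.538 and 2.46. The windows that hold them, of build NCBIM37 (mm9), are printed on the gene's strand with the element in capitals, since these are the 2 genes of the pathway list with the match. The *Rarb* window is chr14:17407937-17408236 on the minus strand and the *Cyp26a1* window chr19:37772048-37772347 on the plus strand.
Rarb: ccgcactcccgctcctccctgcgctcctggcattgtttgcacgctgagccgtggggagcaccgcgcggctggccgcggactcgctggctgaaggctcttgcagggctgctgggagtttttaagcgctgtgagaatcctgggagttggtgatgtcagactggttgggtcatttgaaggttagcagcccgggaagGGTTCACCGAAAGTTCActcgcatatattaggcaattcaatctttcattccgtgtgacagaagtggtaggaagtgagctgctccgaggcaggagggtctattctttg
Cyp26a1: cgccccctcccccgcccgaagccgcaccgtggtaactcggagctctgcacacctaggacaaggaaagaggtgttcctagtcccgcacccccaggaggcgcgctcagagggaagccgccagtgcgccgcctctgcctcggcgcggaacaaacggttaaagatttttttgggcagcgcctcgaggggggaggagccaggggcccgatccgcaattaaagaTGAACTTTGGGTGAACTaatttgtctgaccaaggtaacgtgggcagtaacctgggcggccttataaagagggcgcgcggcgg
In *Cyp26a1* the repeat runs on the strand opposite to the gene, so the capitals show its reverse complement. A match describes the letters of the window and not a bound site.

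Hox genes specify position along the body axis, and within a cluster the genes of low paralog number are those of the most anterior domains and respond first to retinoic acid. All 39 Hox genes were below 1 FPKM at day 2, the highest at 0.855 FPKM. By day 4 levels were higher toward the low-numbered end of the clusters. All 15 genes of paralog groups 1 to 5 were above 1 FPKM at day 4 and were called higher. Of 8 genes in groups 6 to 8 this held for 3, *Hoxb6*, *Hoxb7* and *Hoxb8*, and of 16 in groups 9 to 13 for 1, *Hoxb9*, at 2.86 FPKM. The 19 genes passed the filter through day 4 alone, so their ratios are not summarized.

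High levels at day 4 were those of *Hoxb5* (98.1 FPKM), *Hoxb2* (64.8), *Hoxb4* (57.7), *Hoxd4* (45.9) and *Hoxc4* (37.3). The Hoxb cluster had 9 of its 10 genes above 1 FPKM at day 4, against 5 of 11 in Hoxa, 2 of 9 in Hoxc and 3 of 9 in Hoxd. The border was sharp in the Hoxa cluster, with *Hoxa5* at 26.9 FPKM and *Hoxa6* at 0.132, and in Hoxc, with *Hoxc5* at 11.6 and *Hoxc6* at 0.164. In Hoxb the levels were uneven, 31.2 FPKM for *Hoxb6*, 5.40 for *Hoxb7*, 28.0 for *Hoxb8*, 2.86 for *Hoxb9* and 0.111 for *Hoxb13*. In Hoxd, *Hoxd1* stood at 1.27 FPKM, under *Hoxd3* at 21.1 and *Hoxd4*. The tables give overlapping loci to *Hoxa3*, *Hoxa4*, *Hoxa5* and *Hoxa6*, and to *Hoxd3* and *Hoxd4*, so reads may be split among them. At day 6 *Hoxb5* was at 291 FPKM, *Hoxb8* at 145.0, *Hoxa5* at 175 and *Hoxc6* at 4.70.

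**Figure D4:**
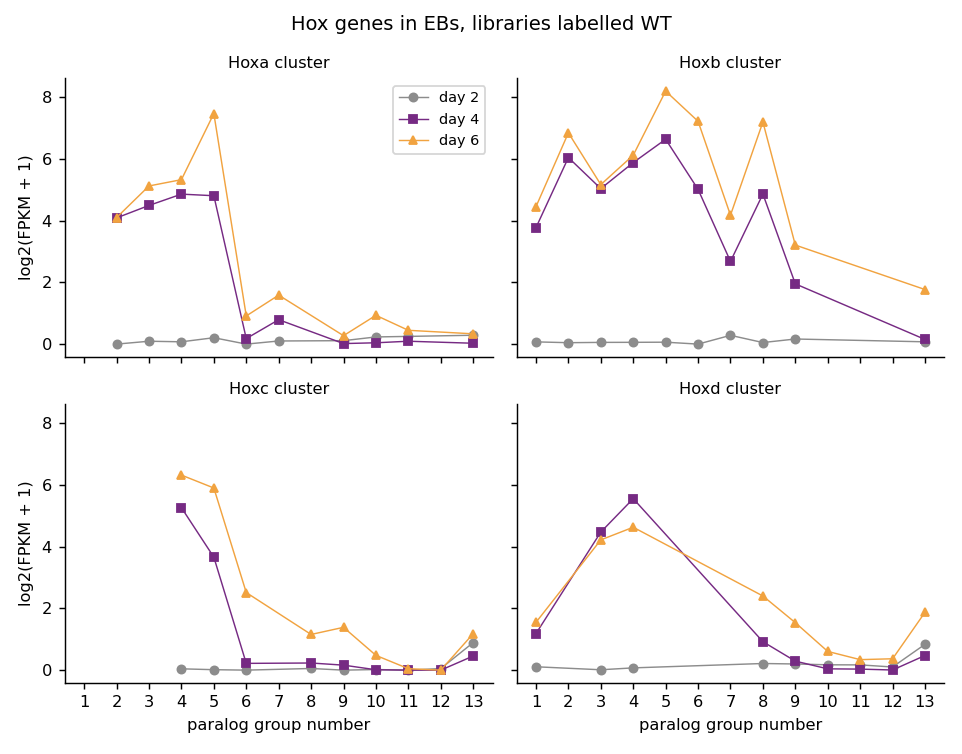
Log2(FPKM + 1) (y axis) of Hox genes reported here, by paralog group (x axis) in the 4 clusters, in the WT-labelled libraries of day 2 (grey), day 4 (purple) and day 6 (orange), 1 library each. Day 2 is near 0 in every cluster, and day 4 falls to near 0 after group 5 in Hoxa and Hoxc and after group 9 in Hoxb.

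Genes for the partners of Hox proteins were higher too. Of 9 genes for TALE and CDX factors, 7 passed the level filter and all 7 of those were called higher, 4 of them being above 1 FPKM at both days. *Meis1* was at 0.214 FPKM at day 2 and 39.4 at day 4, *Meis2* at 0.206 and 36.2, and *Pbx2* at 20.9 and 86.0. *Cdx1*, a caudal factor and target of retinoic acid and Wnt, was at 0.127 and 1.54 FPKM. Markers of the brain in front of the Hox domain were low. Of 14 forebrain and midbrain genes 4 passed the level filter, *Otx2* and *Hesx1* lower at day 4 and *Lhx2* and *Pax2* higher, both at 1.18 FPKM, and each of the 4 was above 1 FPKM at 1 day alone. Of 6 hindbrain genes above 1 FPKM, 4 were called higher and 1 lower, and 3 of the 6 passed the filter through day 4 alone, which leaves 1 higher with both days above 1 FPKM. *Fgf3*, a signal made in the hindbrain, went from 0.290 to 2.48 FPKM, and the ephrin receptor gene *Epha4*, at 1.20 and 2.53 FPKM, was just within 2-fold. The rhombomere gene *Egr2* was below 1 FPKM at both days, at 0.178 and 0.0258.

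Genes that transduce or answer to Sonic hedgehog were mostly higher at day 4. All 14 genes of the list were above 1 FPKM, 12 were called higher and none lower, with a median log2 ratio of 2.02, and of the 11 above 1 FPKM at both days 9 were higher. *Gli1*, whose level is the usual readout of pathway activity, was at 4.67 FPKM at day 2 and 36.4 at day 4. *Ptch1*, the receptor that the pathway induces as feedback, was at 9.37 and 92.6 FPKM, and *Hhip*, an inhibitor that binds the ligand, at 0.243 and 3.16. The transducer gene *Smo* went from 11.3 to 58.3 FPKM, the co-receptors *Gas1* from 4.39 to 25.4 and *Boc* from 0.839 to 4.44, and the repressor gene *Gli3* from 2.52 to 12.5. *Disp1* (2.14 and 4.45 FPKM) and *Kif7* (3.30 and 6.29) were within 2-fold once centred. *Shh* itself, the ligand gene, counted here with the ventral genes, was at 1.22 FPKM at day 2 and 0.195 at day 4. At day 6 *Gli1* was at 6.98 FPKM and *Ptch1* at 11.2.

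The GLI site GACCACCCA, searched on both strands in the same windows, was found at 2 genes called higher, 4 called lower and 23 within 2-fold, 0.241% of all.

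Of 14 regulators of ventral progenitor identity 12 were above 1 FPKM, with 9 called higher and 3 lower, and 6 of the 12 were below 1 FPKM at day 2. With both days above 1 FPKM 4 genes remained to compare, 3 higher and 1 lower. *Olig2*, which marks the progenitors of motor neurons, was at 11.4 FPKM at day 2 and 59.9 at day 4, a log2 ratio of 2.31, with 16.5 FPKM in ES cells and 34.1 at day 6. Its neighbour in the genome *Olig1* was among the 3 lower, from 22.1 to 8.83 FPKM, beside *Shh* and *Foxj1*, which passed the filter through day 2 alone. *Nkx6-1*, which acts with *Olig2* in these progenitors, went from 0.0704 to 30.2 FPKM, and *Irx3*, of the adjoining progenitor domain, from 0.769 to 70.0. *Nkx2-9* went from 0.692 to 19.6 FPKM and *Foxa2*, a floor plate and endoderm gene, from 1.79 to 10.1. *Dbx1*, of interneuron progenitors at the middle of the neural tube, was listed at 0 at day 2 and at 8.82 FPKM at day 4. *Nkx2-2* was at 0.0414 and 0.506 FPKM. Dorsal markers were low, 12 of 14 below 1 FPKM at both days.

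Notch signaling keeps some progenitors dividing while others become neurons. Of 18 pathway genes above 1 FPKM, 11 were called higher and 1 lower, with a median of 1.09, and 3 of the 18, *Dll4*, *Hes5* and *Hey2*, passed the filter through day 4 alone. With both days above 1 FPKM 8 were higher and 1 lower. The ligand genes *Dll1* (4.14 to 19.3 FPKM) and *Dll4* (0.1004 to 1.91) were higher, and *Dll3* was at 5.005 and 6.54. The glycosyltransferase genes *Lfng* and *Mfng*, which modify Notch receptors, went from 1.91 to 13.6 and from 3.11 to 11.9 FPKM. Among target genes *Hes5* had the largest ratio, from 0.185 to 71.0 FPKM, beside *Hes1* (17.5 to 47.5), *Hey1* (3.44 to 7.86) and *Hey2* (0.523 to 2.90). *Rbpj*, the DNA-binding partner of Notch, was the gene called lower, from 67.6 to 33.4 FPKM, a call that was lost when libraries were scaled to the same sum of FPKM. The RBPJ site GTGGGAA lay in the windows of 5.08% of genes called higher, 6.67% of those called lower and 5.67% of all. The window of *Hes5* is shown, chr4:154334782-154335081 on the plus strand, because it holds 2 such matches, in capitals, the first as its reverse complement.
Hes5: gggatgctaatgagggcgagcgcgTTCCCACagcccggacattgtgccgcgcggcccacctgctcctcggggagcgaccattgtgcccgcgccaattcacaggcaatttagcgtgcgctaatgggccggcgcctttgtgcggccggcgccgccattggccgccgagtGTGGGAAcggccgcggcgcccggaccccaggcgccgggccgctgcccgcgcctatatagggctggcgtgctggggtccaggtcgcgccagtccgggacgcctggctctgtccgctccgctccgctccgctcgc

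Proneural factors commit progenitors to become neurons. Of 17 proneural genes 10 were above 1 FPKM, with 7 called higher, 3 within 2-fold and none lower. Of the 10, 4 were below 1 FPKM at day 2, and with both days above 1 FPKM 3 were higher. *Neurog2* was listed at 0 at day 2 and at 15.8 FPKM at day 4, *Neurog1* was at 0.0754 and 8.96, and *Neurod4* at 0.0109 and 3.89. *Hes6*, within 2-fold, was at 25.8 and 15.6 FPKM. Of 11 motor neuron genes 9 were below 1 FPKM at both days, among them *Isl1* (0.244 and 0.301), *Lhx3* (0.0319 and 0.173) and *Chat* (0.0170 and 0.0586), and the others were *Mnx1*, at 0.487 and 2.32 FPKM, and *Onecut1*, at 0.0513 and 1.55. At day 6 *Mnx1* was at 14.3 FPKM. General neuronal genes moved in both directions, with 4 of 11 called higher and 4 lower and a median of 0.17. Of the 11, 1 passed the filter through day 4 alone and 1 through day 2 alone. With both days above 1 FPKM 3 were higher and 3 lower. *Tubb3* was at 32.8 and 14.4 FPKM and *Stmn2* at 56.1 and 7.19, both lower, whereas *Gap43* (2.91 to 33.3 FPKM) and *Stmn3* (4.22 to 23.1) were higher. *Tubb3* was at 561 FPKM and *Stmn2* at 180.3 at day 6.

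Of guidance genes, 7 of 16 above 1 FPKM were called higher and 1 lower, but 6 of the 16 were below 1 FPKM at day 2, and with both days above 1 FPKM 2 were higher and 1 lower. *Robo2*, a receptor for Slit proteins, went from 0.132 to 11.1 FPKM. Wnt pathway genes were mixed, with 3 of 13 higher and 6 lower, or 2 higher and 1 lower with both days above 1 FPKM. The secreted inhibitors *Sfrp2* (15.4 to 160.2 FPKM) and *Sfrp1* (9.68 to 32.9) were higher, and *Lef1* (8.29 to 0.572), *Wnt8a* (1.501 to 0.0676) and *Dkk1* (1.53 to 0.0831) were lower, while the target gene *Axin2* was at 3.16 and 4.53.

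Markers of other germ layers and cell types were measured beside these groups. *T*, the Brachyury gene of primitive streak, was at 12.6 FPKM at day 2 and 0.0998 at day 4, and *Eomes* at 2.24 and 0.177. Of 17 mesoderm genes 10 were below 1 FPKM at both days, 4 were called lower and 2, *Meox1* and *Foxc1*, higher, at 2.68 and 1.13 FPKM. With both days above 1 FPKM 1 mesoderm gene was lower and 0 higher. Endoderm genes were mixed, 5 higher and 2 lower of 9 above 1 FPKM, 4 of which were below 1 FPKM at day 2. With both days above 1 FPKM 1 was higher and 1 lower, and above 5 FPKM in either library none was higher and 1 lower. *Sox17* was at 0.767 and 3.35 FPKM, *Foxa1* at 0.448 and 4.10, *Apoe* at 836 and 141, and *Cer1* at 4.40 and 0.0153. Of 9 neural crest genes 5 were above 1 FPKM, with 2 called higher, 2 lower and 1 within 2-fold, or 0 higher and 1 lower with both days above 1 FPKM. The defining *Sox10* (0.451 and 0.174 FPKM) and *Snai2* (0.578 and 0.439) were below 1 FPKM, while *Ednrb* went from 0.0727 to 39.6. Of 12 blood and endothelial genes 8 were below 1 FPKM and 3 were called lower, 2 of them below 1 FPKM at day 4, with *Pecam1* from 19.1 to 1.13.

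The fibroblast list stands for the feeder layer, and 10 of its 15 genes were called lower and 2 higher. Of the 15, 6 passed the filter through day 2 alone and 1 through day 4 alone. With both days above 1 FPKM 5 were lower and 1 higher, and with 1 FPKM added to each value 10 were lower and 0 higher. Summed over the list, the levels of ES cells and of EBs on days 2, 4 and 6 were 1047, 192, 45.1 and 96.5 FPKM. *Col1a1* had 158, 11.6, 1.23 and 17.0 FPKM in that order, and *Col3a1* at 37.0, 15.1, 0.776 and 9.61. The actin-binding gene *Tagln* (4.40 and 9.53 FPKM at days 2 and 4) and *Acta2* (0.582 and 2.16) were the 2 called higher. The pluripotency genes and the fibroblast genes were thus both lowest at day 4 in summed level, at 364 FPKM for the core list against 2531 at day 2 and 733 at day 6. The part of feeder cells in the falls at day 4 was not tested.

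Genes of growth were nearly level. None of 16 cell division genes passed 2-fold, with a median log2 ratio of -0.02, and none of 26 ribosomal protein genes, with a median of -0.28. Of 14 cell cycle regulators 4 were called higher, *Ccnd2*, *Cdkn1c* (12.5 to 27.7 FPKM), *Cdkn2c* and *Myc*, and 1 lower, *Cdkn2a*. Of the 14, 1 passed the filter through day 4 alone, and with both days above 1 FPKM 3 were higher and 1 lower. The other cyclin D genes were at 43.0 and 62.3 (*Ccnd1*) and at 40.8 and 41.0 (*Ccnd3*). Of 14 genes of glycolysis and hypoxia, *Slc2a1*, the glucose transporter GLUT1, went from 142 to 681 FPKM and *Vegfa* from 8.25 to 19.2, and *Slc2a3*, *Pdk1* and *Ndrg1* were lower. Of 11 apoptosis genes 2, both below 1 FPKM at day 2, were called higher and 1 lower, and of 12 housekeeping genes 1 lower.

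TAF9B is a paralog of TAF9, a subunit shared by TFIID and the SAGA coactivator. Of 15 genes of the TFIID list above 1 FPKM, 13 were within 2-fold, *Taf7* was lower (42.1 to 21.8 FPKM, log2 ratio -1.04) and *Taf9b* was higher (0.516 to 1.96 FPKM, 1.84). The *Taf7* call was lost with no centring, upper-quartile scaling, scaling to the same sum or 1 FPKM added to each value. *Taf9b* passed the filter through day 4 alone, and its call was lost with 1 FPKM added, with a filter of 5 FPKM or of both days above 1 FPKM, and at 4-fold. *Taf9b* (NM_001001176), on chromosome X from 103402213 to 103416497 of mm9, was at 4.08 and 4.27 FPKM in the libraries labelled KO at the same days (0.01). *Taf9* was at 162 and 181 FPKM. *Taf4b*, a paralog with roles in germ cells, was at 6.84 and 3.99 FPKM. *Tbp*, the TATA-binding protein, was at 22.3 and 22.9 FPKM.

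The libraries labelled KO at days 2 and 4 give a separate measurement of the same interval in another clone. In them 1808 of 12620 loci were higher at day 4 (14.3%) and 1056 lower (8.37%). Of the 1775 loci higher in the libraries labelled WT, 61.5% were also higher in those labelled KO and 0.901%, or 16 loci, were lower. Of the 1873 lower loci, 42.8% were also lower and 1.66%, or 31 loci, were higher. Over 10643 loci above 1 FPKM in all 4 libraries the log2 ratios of both pairs had a Spearman correlation of 0.71 and a Pearson correlation of 0.75, as a description. The members of a pair share a table with the other pair, since each day was normalized as 1 table.

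Several retinoic acid genes were higher at day 4 in both pairs. In the libraries labelled KO *Rarb* was at 0.0233 FPKM at day 2 and 30.2 at day 4, *Cyp26a1* at 0.209 and 77.5, *Crabp2* at 22.6 and 843, and *Stra8* at 0.153 and 177. Of the retinoic acid list 13 of 20 genes above 1 FPKM were higher there and 0 lower, 7 of the 13 having passed the filter through day 4 alone. Of the 12 above 1 FPKM at both days, 6 were higher. All 15 Hox genes of groups 1 to 5, each below 1 FPKM at day 2, were higher, *Hoxb1* from 0.0762 to 30.8, where the libraries labelled WT had 12.6 at day 4. *Hoxb4* reached 20.3 FPKM and *Hoxd4* 12.4, against 57.7 and 45.9 with the label WT. Of the neural progenitor list 16 of 18 genes were higher, 9 of them through day 4 alone, and 7 of the 9 above 1 FPKM at both days were higher. *Pax6* reached 29.5 FPKM and *Sox1* 7.31.

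Of 13 Sonic hedgehog pathway genes above 1 FPKM with the label KO, 8 were higher and 0 lower, with a median log2 ratio of 1.45. With the label WT the median was 2.02, but over 14 genes, so the medians are not of the same set. In each set 3 genes passed the filter through day 4 alone. Of the 10 above 1 FPKM at both days with the label KO, 5 were higher. *Gli2* had a log2 ratio of 2.05 with the label KO against 1.81 with the label WT, and *Cdon* 1.78 against 1.15. Several targets had lower ratios with the label KO. *Gli1* was at 7.64 FPKM at day 2 and 6.94 at day 4 with the label KO, a log2 ratio of -0.19 against 2.87 with the label WT. *Ptch1* was at 7.66 and 26.5 FPKM there (1.74 against 3.22), and *Nkx6-1* at 0.185 and 2.67 (3.80 against 8.65). *Olig2* went from 12.6 to 4.67 FPKM, a log2 ratio of -1.49 against 2.31. *Hes5* ended at 3.61 FPKM and *Neurog2* at 1.62, where the WT-labelled library had 71.0 and 15.8. With 1 library at each day these differences were not tested, and *Taf9b* does not match the labels in ES cells and EBs.

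Pluripotency and epithelial genes stood at higher levels at day 4 with the label KO. *Pou5f1* was at 987 and 99.1 FPKM, *Nanog* at 51.5 and 42.9, and the core list had a median of -1.48 with 10 of 13 genes lower. Of 13 epithelial genes above 1 FPKM, 3 were higher and 3 lower, with *Krt8* at 67.0 and 107 FPKM, *Cldn4* at 229 and 334, and *Krt19* at 11.5 and 75.3. The summed fibroblast level was 185 FPKM at day 2 and 117 at day 4, so it too was higher at day 4 than in the library labelled WT.

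**Figure D5:**
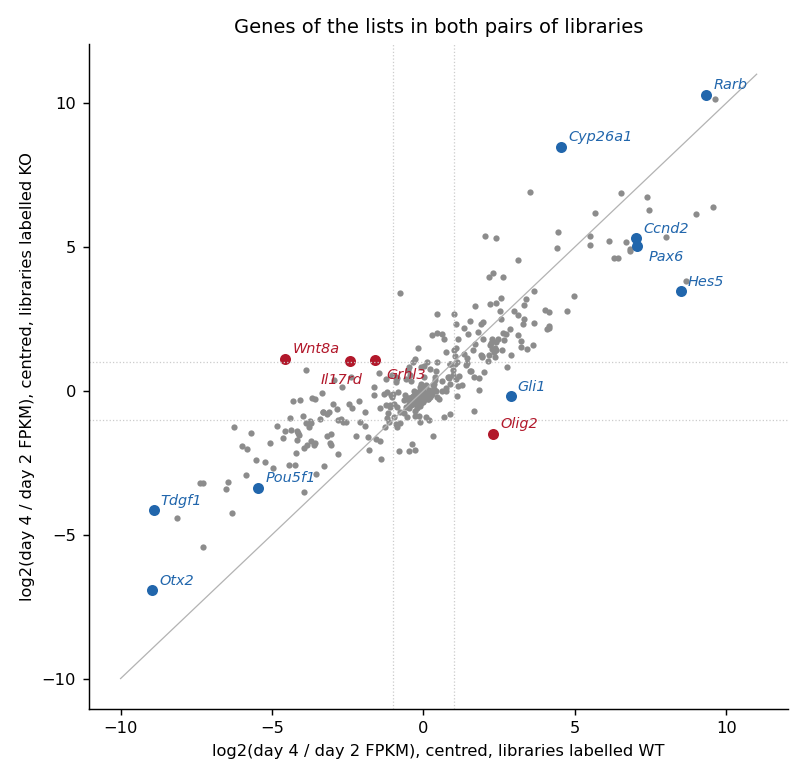
Centred log2 ratio of FPKM, day 4 over day 2, in the libraries labelled WT (x axis) and KO (y axis) for 353 genes of the lists, each above 1 FPKM in at least 1 library of either pair, 1 point per gene, with dotted lines at 2-fold and the line of equal ratios. *Rarb* and *Cyp26a1* are high on both axes, *Gli1* is near 0 on the y axis, and 4 genes in red pass 2-fold in opposite directions.

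Binding sites of TAF9B and RNA polymerase II were mapped by the study in EBs enriched for motor neurons from another ES cell clone, HBG3, at a later day. A TAF9B peak midpoint lay within 500 bp of an end of the locus for 21.5% of 1766 genes higher at day 4, 19.0% of 1864 lower and 34.0% of 8850 within 2-fold. For RNA polymerase II these shares were 40.4%, 22.3% and 62.3%. Farther away, within 50 kb, a TAF9B peak was found for 64.2%, 64.1% and 65.4%. Genes within 2-fold had a higher median level, and loci called higher were longer, with a median span of 36.7 kb against 17.4 kb for those lower and 23.6 kb for the rest. Among loci under 10 kb the shares with a TAF9B peak at an end were 24.0%, 19.7% and 37.4%. Of the single genes looked up, only *Olig2*, *Hoxb5*, *Meis1* and *Neurog2* had a TAF9B peak at an end. *Pax6*, *Sox1*, *Rarb*, *Gli1*, *Hes5*, *Ptch1*, *Nkx6-1*, *Irx3*, *Cyp26a1*, *Crabp2*, *Ccnd2*, *Meis2*, *Otx2* and *Pou5f1* did not. All of those without one, except *Pou5f1*, had a TAF9B peak farther away within 50 kb.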

How the data were processed

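Poly-A RNA-seq libraries labelled EB_Day2_WT and EB_Day4_WT were compared, 1 each. The authors mapped reads against RefSeq genes (mm9) with TopHat and deposited Cuffdiff FPKM values, which were used as deposited, and the tables' columns of fold change and p-value, the authors' own comparisons, were not used. The MACS score of each deposited peak was not used beyond its position. Versions of these tools are not given in the sources used here.

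Each table held 23152 loci. After 43 rows that share an accession and a position were left out, 23109 loci were joined between days on accession and position, and 35 with the Cuffdiff status FAIL or HIDATA were left out, leaving 23074. Symbols came from RefSeq accessions for 98.4% of loci. At day 2 and day 4 the levels summed to 722012 and 671507 FPKM, and 5250 and 4506 loci were listed at 0. Low levels gave no common step between the 2 tables from which whole reads could be recovered, so counts and counting intervals could not be given, and no test fits 1 library a side.

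Log2 ratios had no pseudocount except where + 1 is written. A gene listed at 0 on 1 side counted as past the fold. Where a symbol had several loci the one with the higher summed level was used. Genes named are, with microRNA and small nucleolar RNA loci left out, the 10 largest rises and falls above 1 FPKM at both days, the 10 highest at each day that were below 1 FPKM at the other, list members with the extreme ratios or a defining role, Hox genes, *Taf9b*, and list genes opposite between labels. Some genes that this rule names are not reported here. Any further gene was picked with its values in view. The members, lists and alternatives were chosen with earlier results of these data known. The sequence windows were read from the NCBIM37 genome at GENCODE vM1 transcript starts, for 96.5% of genes, and the choice of these windows over the RefSeq promoter table, which covered fewer genes, was made after seeing the data, as were the counts above 1 FPKM at both days in the libraries labelled KO. The calling of loci past 2-fold was tested on simulated levels with known changes. Python 3.11.15, numpy 2.4.6, pandas 2.3.3 and matplotlib 3.10.9 were used.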

Additional observations from a re-analysis of the deposited data

Results flagged for a closer look

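In 4 genes reported here from the lists, the libraries labelled WT and those labelled KO moved past 2-fold in opposite directions from day 2 to day 4. These differences rest on 1 library per day and label and were not tested. In all, 47 of the 12531 loci above 1 FPKM in at least 1 library labelled WT moved in opposite directions in this way.

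*Olig2*, the motor neuron progenitor factor, had a centred log2 ratio of 2.31 with the label WT (11.4 to 59.9 FPKM) and of -1.49 with the label KO (12.6 to 4.67 FPKM). The other 3 were lower with the label WT and higher with the label KO, where their ratios were only just past 2-fold. *Wnt8a*, a Wnt ligand of the early embryo, had -4.56 (1.501 to 0.0676 FPKM) and 1.11 (0.498 to 1.12 FPKM). It passed the filter through day 2 alone with the label WT and through day 4 alone with the label KO. Both of its directions were thus in large part set by the filter. *Il17rd*, an inhibitor of FGF signaling also called Sef, had -2.43 (8.33 to 1.64 FPKM) and 1.04 (7.63 to 16.3 FPKM). *Grhl3*, a factor of surface ectoderm, had -1.59 (2.13 to 0.752 FPKM) and 1.05 (3.93 to 8.47 FPKM). With the label WT it passed the filter through day 2 alone.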

How the results depend on the processing

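Of 34 lists none turned direction under another scaling, from more members higher to more lower or the reverse. Lists with equal numbers higher and lower could not turn by this count. These were the dorsal, forebrain and midbrain, neuron, neural crest, TFIID, cell division and ribosomal protein lists. A list that became even was not counted as turned, such as epithelium with the label KO, at 3 higher and 3 lower. On the libraries labelled WT, 4 lists turned under a filter on levels, namely Wnt, endoderm, apoptosis and adhesion, and in the libraries labelled KO 3 turned, namely Wnt, Nodal and BMP, and mesoderm. Loci higher and lower numbered 1091 and 1091 above 5 FPKM in at least 1 library, 1060 and 1108 above 1 FPKM in both, 2799 and 3591 with no filter (above 0 in both), and 709 and 885 at a fold of 4. The lower loci were 1056 in the libraries labelled KO. List genes past 2-fold were 133 rather than 243 when both libraries had to be above 1 FPKM. The Hox genes past 2-fold were 0 under that filter, which by its construction removes genes below 1 FPKM at day 2, and 29 with no filter. Pseudocounts, scalings and 1 locus per gene moved none of these 4 counts by over 1.5 times. Scaling to the same sum of FPKM moved the median of loci above 1 FPKM at both days to 0.19, and the split to 2192 higher and 1581 lower, from 1775 and 1873, and with no centring it was 1961 and 1725. Leaving out a replicate was not possible with 1 library a side. No paired analysis was possible because each group has 1 library and the result comes from no test. Depth is unknown, so folds of genes below 1 FPKM on 1 side are uncertain to an extent that the tables do not show.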
